A study of Mus musculus with 3 samples.

Results

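The 35 genes described here encode the machinery of glycolysis and part of the cellular response to low oxygen. They were chosen by symbol: 4 glucose and lactate transporters, 12 glycolytic enzymes, 3 regulators of the pathway's flow, 4 oxygen-sensing genes and 12 genes known to be switched on in hypoxia. All 35 were found among the 19070 probe-defined features, each as 1 feature. The choice used no cutoff on measured values, though earlier results of these data were known when it was made. They were followed through the cell classes of mouse skin wounds. The wounds were excisional, 5 mm wide, made through the whole skin of the back in female C57BL/6J mice at postnatal day 50, splinted, and collected 5 days later with a 2 mm margin of surrounding skin. The untreated library, titled Sham by the submitters, came from a wound without gel. The GelMA library came from a wound given 20 µL of gelatin methacryloyl, a gelatin made curable by light, which was set in place with ultraviolet light for 1 min. The AN-GelMA library came from a wound given the same gel loaded with apoptotic neutrophils, so both gel groups share the gel and the light. Whether the untreated wound also had the light, and how many mice went into each library, the sources used here do not say. Each group is 1 library, so the treatment, the animal and the piece of skin cannot be told apart. No test between groups was possible.

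Glycolysis turns glucose into pyruvate and yields ATP without oxygen. Slc2a1 and Slc2a3 carry glucose into the cell, hexokinases trap it, phosphofructokinase sets the pace, and Ldha makes the lactate that Slc16a1 and Slc16a3 move across the membrane. When oxygen is plentiful, the prolyl hydroxylases Egln1 and Egln3 mark the subunits Hif1a and Epas1 for destruction. When it is scarce these subunits persist, pair with Arnt and bind DNA at a short core sequence, after which many glycolytic genes and targets such as Hilpda, Ndrg1, Ero1a and P4ha1 are transcribed. Much of this control acts on the HIF proteins and does not appear in the RNA of the subunits themselves. A fresh skin wound is poorly perfused, and its keratinocytes, fibroblasts and macrophages are known to use glycolysis.

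Promoter sequences show where the HIF core lies in some of these genes. RefSeq promoters on the mouse build GRCm38.p6 were found for 32 of the 35 genes. The letters ACGTG, in either direction and therefore also as CACGT, were searched in windows of 300 bases, from 250 before to 50 after each annotated start. They were present for 23 of the 32 genes (71.9%), against 3583 of 14085 genes with a probe and a promoter (25.4%). The second form of the core, GCGTG, was present for 65.6% of the 32 genes and 47.1% of all. The promoters of the 32 genes had a median GC content of 63.3%, against 58.3% for all promoters. Among promoters whose GC content lay between the quartiles of these genes, 27.6% of genes held ACGTG. A gene can have several promoters, and the GC limit leaves some of them out. Counted per promoter, the share with ACGTG was 57.8% of the 45 promoters of the 32 genes. It was 22.3% of all promoters and 26.2% of those between the quartiles. Shown here are 5 genes to which the values return, picked among those with a match before the start. Ldha had the most matches. The others were picked because they were lower in GelMA than in untreated in macrophages, fibroblasts and injury keratinocytes alike. The 250 bases before the start are given 5′ to 3′ on the gene's strand, with ACGTG or CACGT in capitals. In Ldha the palindrome CACGTG counts on both strands.

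Slc2a1, glucose transporter, chr4:119108495-119108744, plus strand: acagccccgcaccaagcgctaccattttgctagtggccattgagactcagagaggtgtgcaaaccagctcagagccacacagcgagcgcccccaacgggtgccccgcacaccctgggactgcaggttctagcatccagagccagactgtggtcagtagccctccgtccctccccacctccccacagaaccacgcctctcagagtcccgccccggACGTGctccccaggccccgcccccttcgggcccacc
Hk2, hexokinase, chr6:82774455-82774704, minus strand: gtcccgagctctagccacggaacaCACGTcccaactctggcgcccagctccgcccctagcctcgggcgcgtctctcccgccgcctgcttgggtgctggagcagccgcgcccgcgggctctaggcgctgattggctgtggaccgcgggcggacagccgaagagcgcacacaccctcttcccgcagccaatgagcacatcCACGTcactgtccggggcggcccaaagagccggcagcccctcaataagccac
Ldha, lactate dehydrogenase, chr7:46845554-46845803, plus strand: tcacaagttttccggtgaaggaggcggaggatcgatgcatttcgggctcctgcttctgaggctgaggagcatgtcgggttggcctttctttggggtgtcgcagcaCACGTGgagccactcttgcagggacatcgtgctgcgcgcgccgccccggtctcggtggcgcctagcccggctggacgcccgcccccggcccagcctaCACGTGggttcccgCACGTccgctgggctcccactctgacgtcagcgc
Ero1a, an oxidase that forms disulfide bonds, chr14:45318573-45318822, minus strand: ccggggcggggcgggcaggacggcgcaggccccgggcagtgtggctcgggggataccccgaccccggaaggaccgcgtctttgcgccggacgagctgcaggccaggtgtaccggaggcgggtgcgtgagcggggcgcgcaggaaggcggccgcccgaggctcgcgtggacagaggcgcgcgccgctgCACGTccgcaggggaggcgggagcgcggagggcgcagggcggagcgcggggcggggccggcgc
Ddit4, an inhibitor of mTOR signalling, chr10:59951771-59952020, minus strand: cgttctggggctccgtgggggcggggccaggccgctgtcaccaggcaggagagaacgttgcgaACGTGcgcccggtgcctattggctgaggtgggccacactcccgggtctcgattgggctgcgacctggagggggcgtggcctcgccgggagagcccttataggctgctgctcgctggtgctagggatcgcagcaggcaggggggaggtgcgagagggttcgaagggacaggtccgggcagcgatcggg

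The match lay 36 bases before the start in Slc2a1, 63 in Ero1a and 187 in Ddit4. Hk2 had matches at 226 and 52 bases, and Ldha at 145, 144, 48, 47 and 34 bases. Such a match describes the letters only, and no binding was measured.

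There were 6073 cell barcodes in the untreated library, 11449 in GelMA and 9648 in AN-GelMA, with medians of 1125, 1485 and 1134 UMIs (unique molecular identifiers, each counting 1 captured molecule) per barcode. Pairs of libraries shared 94 to 135 barcode sequences. The files of the AN-GelMA library carry the word "Heat", whereas its labels name apoptotic neutrophils; the group was taken from the labels, and the sources used here do not explain the word. Clusters were named from marker genes, with the 35 genes kept out of the clustering, and a class name means cells like that class. UMIs were summed by class and library and are given as CPM, the count scaled to a sum of 1e6 UMIs. A ratio is a log2 ratio of CPM, its brackets hold the exact 95% counting interval, and a gene counts as higher or lower where the CPM differ by 1.5 times or more. Ratios were formed for genes with at least 20 UMIs over both libraries. The share of all measured features that pass 1.5 in the same direction is given beside the first count of a comparison as its background. Intervals reflect the number of molecules and not the variation between wounds. Probes differ in capture, so levels are compared between classes and libraries within a gene and not between genes.

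The 35 genes together took their largest shares, among the named classes, in neutrophil-like cells, the phagocytes that arrive first in a wound, and in injury keratinocytes, the Krt6b, Krt16 and Sprr1b epidermal cells of the wound edge. From untreated through GelMA to AN-GelMA, the order in which 3 values are given throughout, the summed level was 10819, 10667 and 8557 CPM in neutrophils, with only 43 untreated cells, and 9394, 5806 and 8833 CPM in injury keratinocytes. Adipocytes had 6755, 4324 and 7009.6 CPM from 28, 74 and 23 cells. Macrophages were at 6093, 3120 and 5135 CPM, and fibroblasts at 5795, 2713 and 4772 CPM. In injury keratinocytes, macrophages and fibroblasts the GelMA library was the lowest by a wide margin, with intervals that did not touch. The GelMA interval was [5586, 6032] CPM in injury keratinocytes, [2936, 3313] in macrophages and [2590.1, 2839.5] in fibroblasts. Blood endothelial cells, which line the vessels, had 3387, 3437 and 3399 CPM. Basal keratinocytes, the dividing layer of the epidermis, had 3464, 3576 and 3457 CPM. The summed level in those 2 classes therefore varied by only a few percent between libraries.

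Single genes had their highest level in different classes. Among the 13 classes with at least 50 cells in every library, 11 of the 33 genes with at least 300 UMIs had a highest class whose 3 library values all lay above those of the next class. Over all such features the share was 33.7%, so this count is near the background. Among the 13, injury keratinocytes were the highest class for Hk2 (662 to 1162 CPM, against 323 to 480 in skeletal muscle). They were also the highest for the phosphofructokinase subunits Pfkl and Pfkp, and for Egln3, Ndrg1 and Ddit4. Neutrophils, with too few untreated cells, were not ranked. Their Ddit4 level was 409 CPM in GelMA and 166 in AN-GelMA, against 152 to 256 CPM over the libraries in injury keratinocytes. Car9, an acid-balancing carbonic anhydrase below the 300 UMI limit, was also highest there, at 50.8 to 89.2 CPM against 5.66 to 14.3 in the outer root sheath. Skeletal muscle was far above the rest for Pfkm, the muscle phosphofructokinase subunit, at 848 to 1271 CPM against at most 118.5 in sebocytes. Epas1, the HIF subunit long known from endothelium, was highest in blood endothelial cells at 861 to 1076 CPM, against 443 to 782 in pericytes and smooth muscle. Fibroblasts were highest for P4ha2, a subunit of the enzyme that hydroxylates proline in collagen, and for Adm, which encodes the vessel-relaxing peptide adrenomedullin. The lactate carrier Slc16a1 was highest in sebocytes, the lipid-making cells of the hair follicle, at 63.4 to 113 CPM against 24.1 to 30.7 in suprabasal keratinocytes. Slc2a1 could not be ordered in this way: injury keratinocytes had 358 to 1130 CPM and basal keratinocytes 427 to 556. Hif1a (232 to 371 CPM in injury keratinocytes, 176 to 278 in fibroblasts) also overlapped between its highest class and the next.

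**Figure D1:**
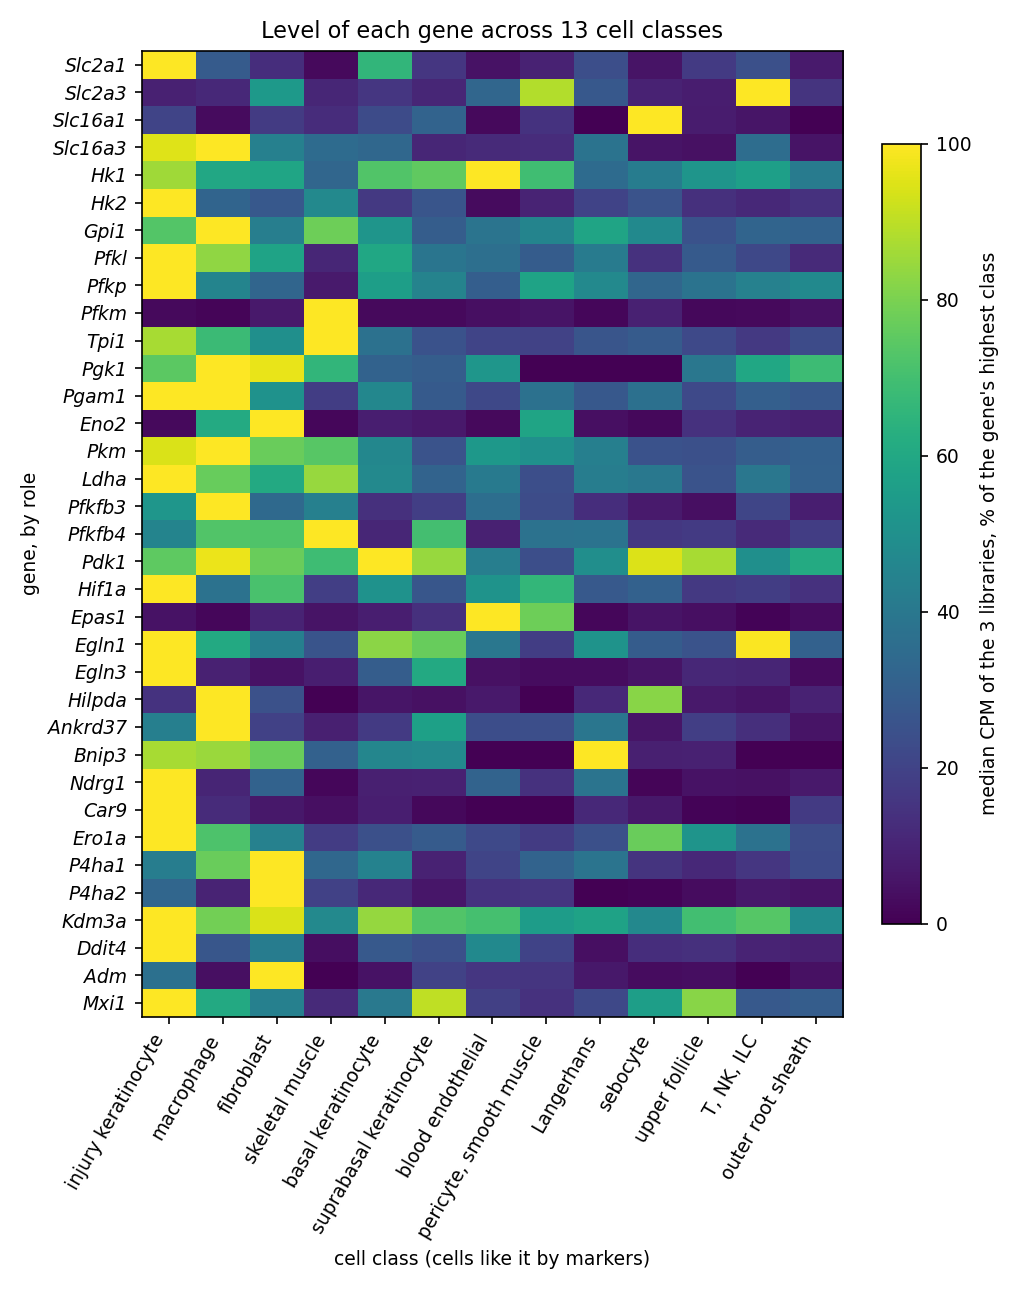
Level of each of the 35 genes (vertical axis) in each of 13 cell classes (horizontal axis), scaled within each gene to its highest class. Pfkm stands out in skeletal muscle, Epas1 in blood endothelial cells, Slc16a1 in sebocytes, and Hk2, Ndrg1 and Egln3 in injury keratinocytes.

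In fibroblasts, the cells that rebuild the dermis, most of the 35 genes were lower in the GelMA wound than in the untreated wound, and were higher again in the AN-GelMA wound. Of 33 measured genes 26 were lower (background 10.2%) and 0 higher (background 16.2%) in GelMA than in untreated, with a median log2 ratio of -1.24. Of 34 measured genes 25 were higher and 0 lower in AN-GelMA than in GelMA, with a median of 1.07 and a background of 10.1%. The medians over all measured features were 0.08 and -0.10 in these comparisons. Of the 26 genes, 23 were higher in AN-GelMA than in GelMA, and 8 were still lower in AN-GelMA than in untreated. The comparisons share libraries and are not independent. The cell mix differed as well: fibroblasts made up 18.7, 5.87 and 22.2% of cells, and macrophages 11.2, 3.60 and 16.6%. Hair matrix and shaft cells made up 2.46, 14.3 and 0.54%, inner root sheath cells 1.08, 10.6 and 0.08%, and outer root sheath cells 2.79, 13.2 and 1.02%. The part of this difference in the ratios was not tested. In AN-GelMA over untreated the median was -0.25, with 9 of 35 genes lower and 0 higher, against a background of 6.28% lower.

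By role, 3 of 4 measured transporters, 9 of 11 enzymes, 3 of 3 flow regulators, 2 of 4 oxygen-sensing genes and 9 of 11 targets were lower in GelMA fibroblasts than in untreated ones. Slc2a1 stood at 169.7, 31.0 and 105 CPM, a ratio of -2.45 [-3.17, -1.81] for GelMA over untreated and 1.76 [1.12, 2.48] for AN-GelMA over GelMA. The lactate exporter Slc16a3 had 67.4, 20.7 and 56.9 CPM. Both transporters were lowest in GelMA; in AN-GelMA Slc16a3 was near the untreated level and Slc2a1 stayed below it. Hk2, the inducible hexokinase, had 279, 85.6 and 301 CPM, with ratios of -1.71 [-2.13, -1.30] and 1.82 [1.43, 2.23]. Pkm, pyruvate kinase, had 257, 88.5 and 253 CPM, and Ldha 108, 45.7 and 109 CPM. For these enzymes the untreated and AN-GelMA values were close together and the GelMA value stood apart. Tpi1, triose phosphate isomerase, had 78.3, 22.1 and 93.8 CPM. Hk1, the hexokinase that most cells express, varied less, at 164, 100.3 and 121 CPM. Eno2, a form of enolase, had 239, 211 and 181 CPM and passed 1.5 in neither comparison. Pfkfb3, which makes the sugar phosphate that activates phosphofructokinase, had 270.4, 66.4 and 174 CPM, a ratio of -2.03 [-2.51, -1.58] for GelMA over untreated. Pdk1, which holds pyruvate back from the mitochondria, had 34.9, 5.90 and 27.0 CPM, resting on 4 UMIs in GelMA. Both regulators were lower in GelMA than in either other library by more than 1.5 times. Pgk1 had 8.52 CPM in untreated, 0 UMIs in GelMA and 10.6 CPM in AN-GelMA. With 0 taken as 3 UMIs, it was 2.41-fold higher in AN-GelMA than in GelMA, which is not a lower limit.

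The hypoxia targets of fibroblasts gave some of the widest differences. Ero1a had 568, 143 and 295 CPM, and its ratio was -1.99 [-2.31, -1.68] for GelMA over untreated and 1.04 [0.74, 1.36] for AN-GelMA over GelMA. Its AN-GelMA level was still below the untreated one, at -0.95 [-1.10, -0.80]. Ndrg1, a stress-response gene, had 432, 105 and 261 CPM, and Ddit4 had 143, 32.5 and 88.1 CPM. Each of these targets followed one order, with untreated highest, AN-GelMA between and GelMA lowest. P4ha1 had 350.3, 145 and 292 CPM and P4ha2 444, 202 and 411 CPM, so both collagen prolyl hydroxylase subunits were near the untreated level in AN-GelMA. Ankrd37 had 54.2, 2.95 and 22.5 CPM, with 2 UMIs in GelMA. Kdm3a, a histone demethylase, had 381, 358 and 369 CPM, and Adm had 132, 161 and 132 CPM. These 2 targets did not pass 1.5 in either direction.

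The oxygen-sensing genes of fibroblasts differed among themselves. Hif1a had 244, 176 and 278 CPM, a ratio of -0.48 [-0.79, -0.17] for GelMA over untreated and 0.66 [0.38, 0.96] for AN-GelMA over GelMA. Epas1 had 89.9, 95.9 and 111 CPM. Egln3, itself a known HIF target, had 51.9, 8.85 and 24.98 CPM, and Egln1 had 65.1, 31.0 and 49.6 CPM.

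A large part of the fibroblast signal lay in 1 cluster with Nos2, Saa3, Tnfaip6 and Cxcl5 among its leading genes, which are genes of inflamed or activated stroma. It held 197 of the untreated fibroblasts (18.4%), 26 of the GelMA fibroblasts (4.13%) and 408 of the AN-GelMA fibroblasts (20.2%). The 35 genes summed to 15616 CPM [15134, 16109] there in the untreated library, 4915 CPM in the 26 GelMA cells and 8832 CPM in AN-GelMA. The cluster carried 53.1%, 11.2% and 43.1% of all fibroblast UMIs of the 35 genes. Without it, the median ratio of GelMA over untreated was -0.53 with 14 of 32 genes lower, and that of AN-GelMA over GelMA was 0.71 with 19 of 33 genes higher, each against a background of 10.1%. The direction was thus the same and the size smaller. Without the cluster AN-GelMA over untreated had a median of 0.03, with Slc2a1 at 0.13 and Ddit4 at 0.32. In fibroblasts as a whole these 2 genes had stood at -0.69 and -0.70.

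Inside that cluster only the untreated and AN-GelMA libraries held enough cells to compare. There 22 of 34 genes were lower in AN-GelMA, with a median of -0.71 and a background of 9.98%. Ero1a had 2033 CPM in untreated and 709 in AN-GelMA, a ratio of -1.52 [-1.71, -1.33]. Ndrg1 had 1679 and 733 CPM, Pfkfb3 790.4 and 276, and Slc2a1 641 and 257. Ankrd37 had 201 and 40.4 CPM. In both libraries these genes were higher in this cluster than in fibroblasts as a whole. Hif1a had 507 and 503 CPM, a ratio of -0.01 [-0.32, 0.30], and Epas1 had 283 and 318. Both HIF subunits were thus close between the libraries, unlike the genes named before them.

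The other 2 fibroblast clusters differed in which genes followed the class. In the cluster led by Pi16 and Sfrp4, genes of fibroblasts around vessels and fascia, 16 of 26 measured genes were lower in GelMA than in untreated (median -0.65, background 13.2%), and 13 of 28 were higher in AN-GelMA than in GelMA (median 0.55, background 13.5%). Hk2 had 156, 51.5 and 206 CPM there, and Slc2a1 75.9, 10.8 and 58.8 CPM with 4 UMIs in GelMA. Ndrg1 had 103, 122 and 117 CPM and so did not share the order of the class. In the cluster led by Tnn and Col12a1, genes of matrix-building fibroblasts, 9 of 25 were lower in GelMA (median -0.35, background 12.5%) and 9 of 27 higher in AN-GelMA (median 0.48, background 12.3%). Pkm had 199, 93.6 and 219 CPM there. Slc2a1 had 32.5, 52.4 and 59.8 CPM and Hk2 111, 131 and 166 CPM, neither of them lowest in GelMA. The intervals for GelMA over untreated included 0 for Slc2a1, [-0.44, 1.80], and for Hk2, [-0.41, 0.87].

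**Figure D2:**
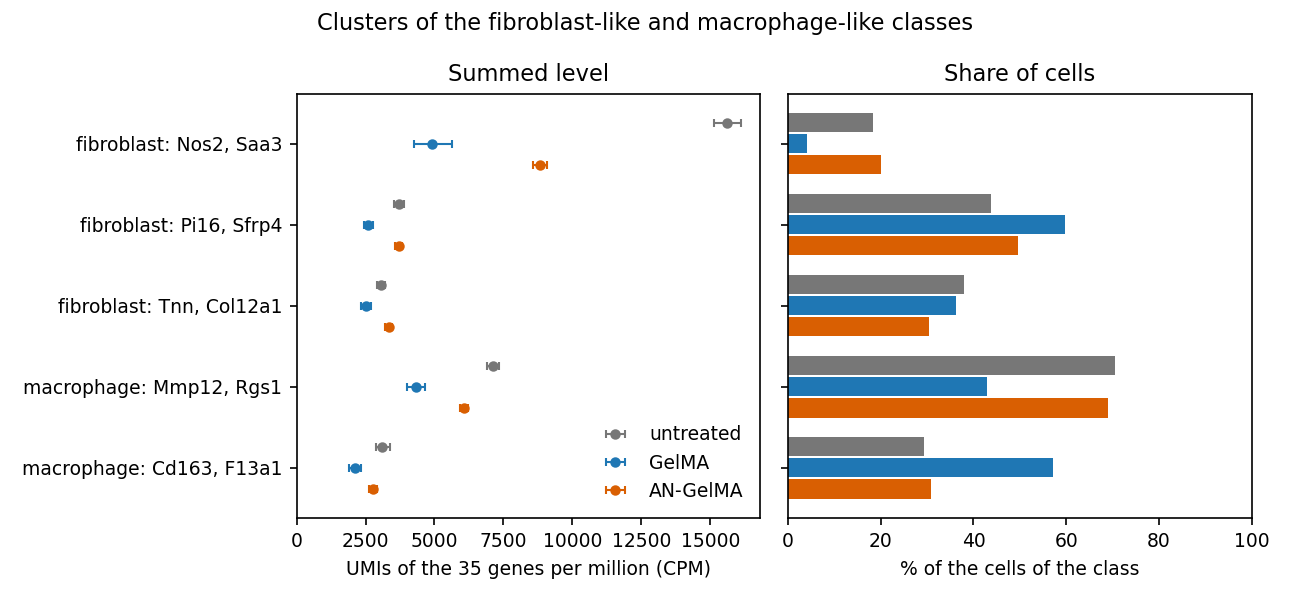
Summed CPM of the 35 genes with counting intervals, and share of the class's cells, for 3 fibroblast and 2 macrophage clusters in each library. The Nos2 and Saa3 cluster reaches 15616 CPM in the untreated wound and holds 4.13% of GelMA fibroblasts, against 18.4% and 20.2% in the other libraries.

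The fibroblasts carried their own markers in every library, at a summed 31111, 25846 and 30604 CPM with 0 of 9 markers at 0. Macrophage markers summed to 312, 376 and 237 CPM in them. Hair keratin and inner root sheath markers, which belong to follicle cells, summed to 184, 1770.1 and 101 CPM, the highest in GelMA. After an estimate of this carried-over RNA was taken off, the fibroblast medians were -1.37 for GelMA over untreated and 1.07 for AN-GelMA over GelMA, as large as before.

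In injury keratinocytes the same order of libraries held for a smaller set of genes. Of 28 measured genes 15 were lower (background 14.1%) and 0 higher (background 18.4%) in GelMA than in untreated, with a median of -0.63. In AN-GelMA over GelMA 14 of 29 genes were higher (background 14.1%) and 1 lower (background 16.0%), with a median of 0.57. Between AN-GelMA and untreated the median was -0.12. There 1 of 28 genes was higher (Pfkl, background 11.4%) and 2 were lower (Pfkfb3 and Epas1, background 10.4%). The class was small, with 85, 117 and 105 cells.

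Pfkfb3, Adm, Slc2a1 and Mxi1 had the widest ratios of GelMA over untreated in injury keratinocytes, Adm from only 13 and 8 UMIs. Slc2a1 had 794, 358 and 1130 CPM, with ratios of -1.15 [-1.45, -0.85] for GelMA over untreated, 1.66 [1.39, 1.93] for AN-GelMA over GelMA and 0.51 [0.27, 0.76] for AN-GelMA over untreated. Pfkfb3 had 561, 174 and 265 CPM, and stayed below untreated in AN-GelMA by a ratio of -1.08. Slc2a1 and Pfkfb3 thus ended on opposite sides of the untreated level in AN-GelMA. Hk2 had 1162, 662 and 1007 CPM, Ndrg1 1008, 556 and 828, and Ero1a 756, 384 and 672. Mxi1, a partner of MAX that opposes MYC, had 699.7, 336 and 641 CPM. All of these were lowest in GelMA, by less than in fibroblasts. Of the targets 9 of 11 were lower in GelMA than in untreated, of the enzymes 3 of 9, and of the oxygen-sensing genes 0 of 4. Pfkp, at 519, 475 and 513 CPM, and Egln3, at 553, 468 and 510.4 CPM, hardly differed between libraries. Ldha had 177, 159 and 198 CPM and did not pass 1.5, unlike in fibroblasts; whether the 2 classes differ for it was not tested. Hif1a had 342, 232 and 371 CPM, a ratio of -0.56 for GelMA over untreated and 0.68 for AN-GelMA over GelMA.

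Other markers moved with the libraries in this class. Its own 8 markers summed to 8792, 11299.8 and 8632 CPM. Suprabasal markers summed to 8528, 16885 and 10314 CPM and basal markers to 14784, 10814 and 15446 CPM, so the GelMA cells carried more suprabasal and less basal RNA. Neutrophil markers were at 1855, 1152 and 1138 CPM. The part of these markers in the ratios was not tested. With each cell thinned to 800 UMIs, 7 of 19 measured genes were higher in AN-GelMA than in GelMA, with a median of 0.20 and a background of 19.5%, and Hif1a was at -0.01.

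In macrophages the GelMA wound was again the lowest. Of 29 measured genes 21 were lower (background 11.9%) and 0 higher (background 17.2%) in GelMA than in untreated, with a median of -1.05. In AN-GelMA over GelMA 18 of 30 genes were higher and 0 lower, with a median of 0.85 and a background of 11.7%. The medians over all features were 0.08 and -0.09. In AN-GelMA over untreated 9 of 33 genes were lower (background 7.95%) and 2 higher (background 7.91%), with a median of -0.27. Of the 21 genes 16 were higher in AN-GelMA than in GelMA, and 6 were still lower than in untreated.

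Hilpda, which coats lipid droplets and slows their breakdown, gave one of the widest macrophage differences. It had 229.6, 32.2 and 151 CPM, with ratios of -2.83 [-3.86, -1.96] and 2.23 [1.36, 3.25]. P4ha2 had 34 UMIs in untreated (46.2 CPM), 0 in GelMA and 66 in AN-GelMA (41.6 CPM). With 0 taken as 3 UMIs, it was 5.26-fold lower in GelMA than in untreated and 4.74-fold higher in AN-GelMA than in GelMA. Neither value is a lower limit. Eno2 had 208, 49.8 and 129 CPM, a range not seen for Eno2 in fibroblasts. In GelMA macrophages these 3 genes rested on 0 to 17 UMIs, against 34 or more in each other library. Slc2a1 had 378, 96.6 and 228 CPM and Ankrd37 238, 61.5 and 117 CPM, both intermediate in AN-GelMA. Pkm had 348, 129 and 327 CPM and Ldha 136, 70.2 and 144 CPM, both near the untreated level in AN-GelMA. Hif1a followed another order, with 129, 123 and 213 CPM, a ratio of -0.07 for GelMA over untreated and 0.72 [0.39, 1.07] for AN-GelMA over untreated. Slc2a3, which had 5.43 and 10.7 CPM in untreated and AN-GelMA, and Hif1a were the 2 genes higher in AN-GelMA than in untreated. Kdm3a, at 312, 307 and 287 CPM, was level across libraries.

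Different clusters held most macrophages. The cluster led by Mmp12 and Rgs1 held 70.6% of the class in untreated, 42.9% in GelMA and 69.1% in AN-GelMA, while the cluster led by Cd163 and F13a1, genes of resident dermal macrophages, held 29.4%, 57.1% and 30.9%. The 35 genes summed to 7113, 4320 and 6080 CPM in the first and 3109.7, 2103 and 2769 CPM in the second. In the Mmp12 cluster alone 16 of 28 genes were lower in GelMA than in untreated (median -0.71, background 16.0%), and 13 of 29 were higher in AN-GelMA than in GelMA (median 0.58, background 15.2%). In the Cd163 cluster 7 of 15 were lower (median -0.38, background 13.4%) and 8 of 18 higher (median 0.43, background 14.3%). The medians inside each cluster were therefore smaller than those of the class and had the same direction, over fewer measured genes. Single genes did not all follow. Hilpda had 303, 70.2 and 205 CPM in the Mmp12 cluster, and at most 7 UMIs in any library in the Cd163 cluster. Hif1a in the Mmp12 cluster had 137, 166 and 243 CPM. Markers of the wound macrophage state summed to 9356, 1952 and 5231 CPM over the class, with 0 of 6 at 0, and resident markers to 2933, 6003 and 3599 CPM, with 0 of 8 at 0. Hair markers in macrophages summed to 163, 1507 and 68.1 CPM; after the carry-over estimate was taken off the medians were -1.08 and 0.92.

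**Figure D3:**
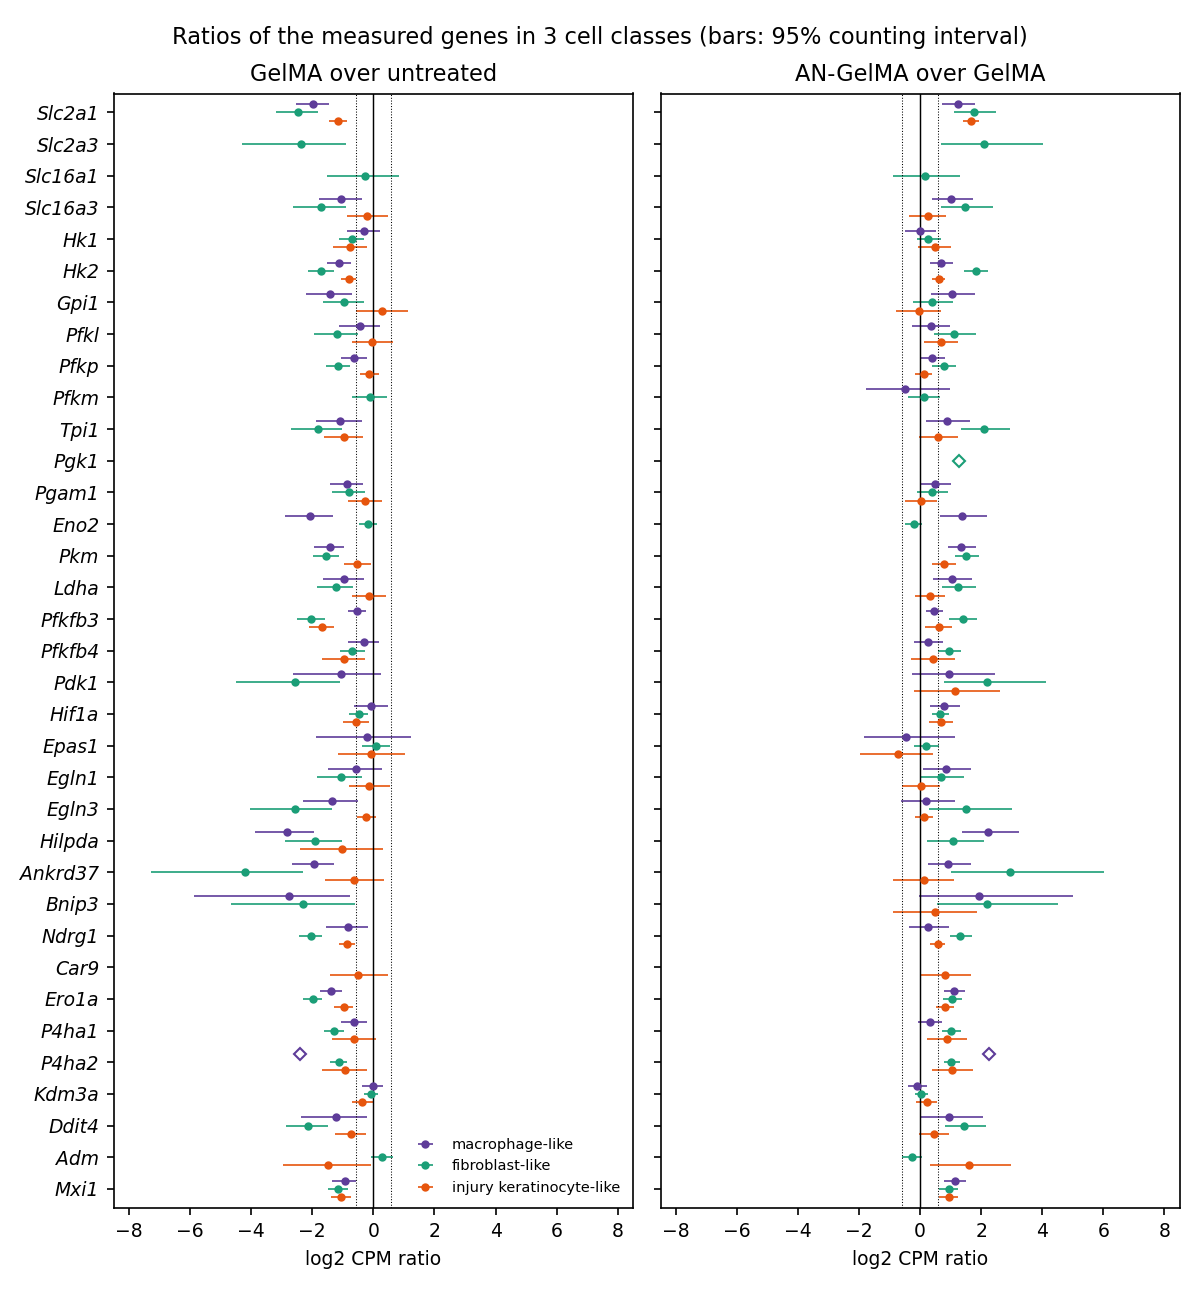
Log2 CPM ratio of each measured gene in macrophages, fibroblasts and injury keratinocytes, with 95% counting intervals, for GelMA over untreated and AN-GelMA over GelMA; dotted lines mark a ratio of 1.5 and open diamonds are bounds where 1 library had 0 UMIs. Most points lie left of 0 in the first panel and right of 0 in the second, while Kdm3a and Epas1 lie near 0 in fibroblasts.

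Across these 3 classes, 11 genes were lower in GelMA than in untreated in all of them: Slc2a1, Hk2, Tpi1, Hilpda, Ankrd37, Ndrg1, Ero1a, P4ha1, P4ha2, Ddit4 and Mxi1. They are 11 of the 26 genes measured in all 3 classes, against a background of 0.975% of features lower in all 3. With cells thinned to 800 UMIs, P4ha1 was at 0.0845 and Tpi1 at -0.50 in injury keratinocytes and so left this group. The 11 include 8 of the 12 targets and 2 of the 12 enzymes, where genes too sparse to be measured in some classes count as not lower. A further 12 genes were lower in 2 classes and 5 in 1 class. The 7 genes lower in none were Hif1a, Epas1, Kdm3a, Pfkm, Pgk1, Car9 and Slc16a1, of which Pgk1, Car9, Pfkm and Slc16a1 were too sparse to be measured in some classes. Higher in AN-GelMA than in GelMA in all 3 classes were 9 of the 27 genes measured in all of them, against a background of 0.876%: Slc2a1, Hk2, Tpi1, Pkm, Pdk1, Hif1a, Ero1a, P4ha2 and Mxi1. Hif1a was at -0.0117 in injury keratinocytes with cells thinned to 800 UMIs and so left this second group. The ACGTG core was found in the promoters of 9 of the 10 genes with a promoter entry that were lower in GelMA in all 3 classes. It was found in 8 of 12 lower in 2, in 1 of 4 lower in 1 and in 5 of 6 lower in none. Hif1a, with 3 matches, was lower in none, and Tpi1, with 0 matches, was lower in all 3. Whether the core goes with the ratios was not tested.

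Among other classes, pericytes and smooth muscle, which wrap the vessels, also had their lowest summed level in GelMA, at 3487 [3160.5, 3838], 2709 [2445, 2994] and 3426 [3068, 3815] CPM. In them 5 of 14 genes were lower in GelMA than in untreated (background 21.0%), and 5 of 13 were higher (background 18.9%) and 1 lower (background 20.3%) in AN-GelMA than in GelMA. Epas1 had 753, 443 and 782 CPM there, and Pfkp 309, 155 and 298. Adipocytes too had their lowest summed level in GelMA, with too few cells to form ratios. In blood endothelial cells 3 of 23 genes were higher (background 17.0%) and 2 lower (background 12.1%) in GelMA than in untreated, and 6 higher (background 13.3%) and 2 lower (background 16.0%) in AN-GelMA than in GelMA. The medians were 0.16 and 0.03. Pkm was an exception, with 240.5, 77.7 and 174 CPM. Epas1, for which this was the highest class, had 964, 1076 and 861 CPM. In basal keratinocytes 3 of 30 genes were higher (background 13.1%) and 1 lower (background 8.38%) in GelMA than in untreated. There 3 of 32 were higher (background 7.98%) and 5 lower (background 13.8%) in AN-GelMA than in GelMA. Basal Slc2a1 stood at 523, 427 and 556 CPM, and Slc16a3 had 43.6, 60.6 and 30.05 CPM, with GelMA highest. In suprabasal keratinocytes, the differentiating layers, 2 of 33 genes were lower in GelMA than in untreated (background 8.29%) and 3 of 34 higher in AN-GelMA than in GelMA (background 8.45%). The 2 lower genes were Slc2a1, at 127, 83.7 and 141 CPM, and Adm, at 26.1, 9.90 and 37.5 CPM. Apart from the 6 genes higher in AN-GelMA endothelial cells, the counts in blood endothelial, basal and suprabasal cells were near or below their backgrounds.

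Mxi1 crossed more classes than most of the set. Beyond the 3 classes above it was lowest in GelMA in blood endothelial cells (123, 77.7 and 148 CPM), basal keratinocytes (281, 155 and 258), suprabasal keratinocytes (580.5, 436 and 655), upper follicle keratinocytes (527, 356 and 546) and outer root sheath cells (188, 103 and 228). Its untreated and AN-GelMA values lay within 1.5 times of each other in each of these classes.

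Neutrophils could be compared only between the gel libraries, with 95 GelMA and 108 AN-GelMA cells. There 9 of 23 genes were lower in AN-GelMA (background 20.5%) and 2 higher (background 24.1%), with a median of -0.36. Hilpda had 997 CPM in GelMA and 369.6 in AN-GelMA, a ratio of -1.43 [-1.99, -0.91]. Slc2a3, the glucose carrier typical of neutrophils, had 1185 and 693 CPM, a ratio of -0.77 [-1.20, -0.36]. Ldha had 564 and 296 CPM and Ddit4 409 and 166. These 4 genes were higher in GelMA, the reverse of their order in fibroblasts, though the difference between the classes was not tested. Slc2a1, at 613 and 545 CPM, did not pass 1.5. The 2 genes higher in AN-GelMA were Mxi1, with 245 and 536 CPM, and Pfkfb3, with 335 and 527. Neutrophil markers summed to 15368 and 13399 CPM in these cells, and wound macrophage markers to 3572 and 702 CPM. Suprabasal markers summed to 3253 and 6210 CPM, inner root sheath markers to 2567 and 444, monocyte markers to 719 and 2245, and fibroblast markers to 409 and 1164. Basal markers were close, at 3286 and 3206 CPM. The part of these markers of other cells in the ratios was not tested. Neutrophils of the wound and neutrophils given with the gel cannot be told apart here.

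Lists of related genes gave the setting. Of other known hypoxia-response genes 17 of 37 were lower and 1 higher in GelMA than in untreated fibroblasts, with a median of -0.53. In macrophages 13 of 29 were lower (median -0.30) and in injury keratinocytes 10 of 25 (median -0.47). Vegfa, the vessel growth factor, had 1063, 338 and 764 CPM in fibroblasts, 626, 214 and 462 in macrophages and 1967, 1139 and 1576 in injury keratinocytes, lowest in GelMA each time. In AN-GelMA over GelMA 17 of 39 of these genes were higher in fibroblasts (median 0.43), 12 of 31 in macrophages (median 0.07) and 7 of 28 in injury keratinocytes (median 0.25). Other glycolytic genes lay nearer 0: in GelMA over untreated their medians were 0.07 in fibroblasts, -0.17 in macrophages and 0.28 in injury keratinocytes. Pgm1, which links glycogen to glycolysis, was an exception, with 177, 90.0 and 188 CPM in fibroblasts and 159, 38.0 and 149 in macrophages. It was lowest in GelMA in both classes.

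Nuclear genes of the respiratory chain, the oxygen-using part of energy metabolism, had medians on the other side of 0. For GelMA over untreated their medians were 0.42 in fibroblasts (5 of 15 higher, background 16.2%), 0.35 in macrophages (3 of 13 higher, background 17.2%) and 0.40 in injury keratinocytes (3 of 10 higher, background 18.4%), with 0 lower in each. The counts in macrophages and injury keratinocytes, from few genes, were near their backgrounds. For AN-GelMA over GelMA the medians were -0.31, -0.34 and -0.05. Citrate cycle genes had medians of 0.19, 0.10 and -0.17 for GelMA over untreated and -0.26, -0.19 and -0.29 for AN-GelMA over GelMA. Pentose phosphate genes, a branch that yields NADPH, had medians of 0.22, -0.31 and -0.27, and then -0.42, -0.14 and -0.25. Integrated stress response genes, switched on when protein synthesis is restrained, had medians of -0.26, -0.11 and 0.08 for GelMA over untreated. Glucocorticoid-response genes had medians of 0.18, -0.20 and -0.08, and neutrophil background genes, which trace free neutrophil RNA, 0.44, 0.56 and -0.67 from 2 or 3 measured genes. In AN-GelMA over GelMA these last 3 lists had medians of 0.08, 0.25 and -0.06, then 0.09, 0.29 and 0.10, then -0.85, 0.85 and -0.01. None of these other lists came near the medians of the 35 genes in both comparisons and in all 3 classes.

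**Figure D4:**
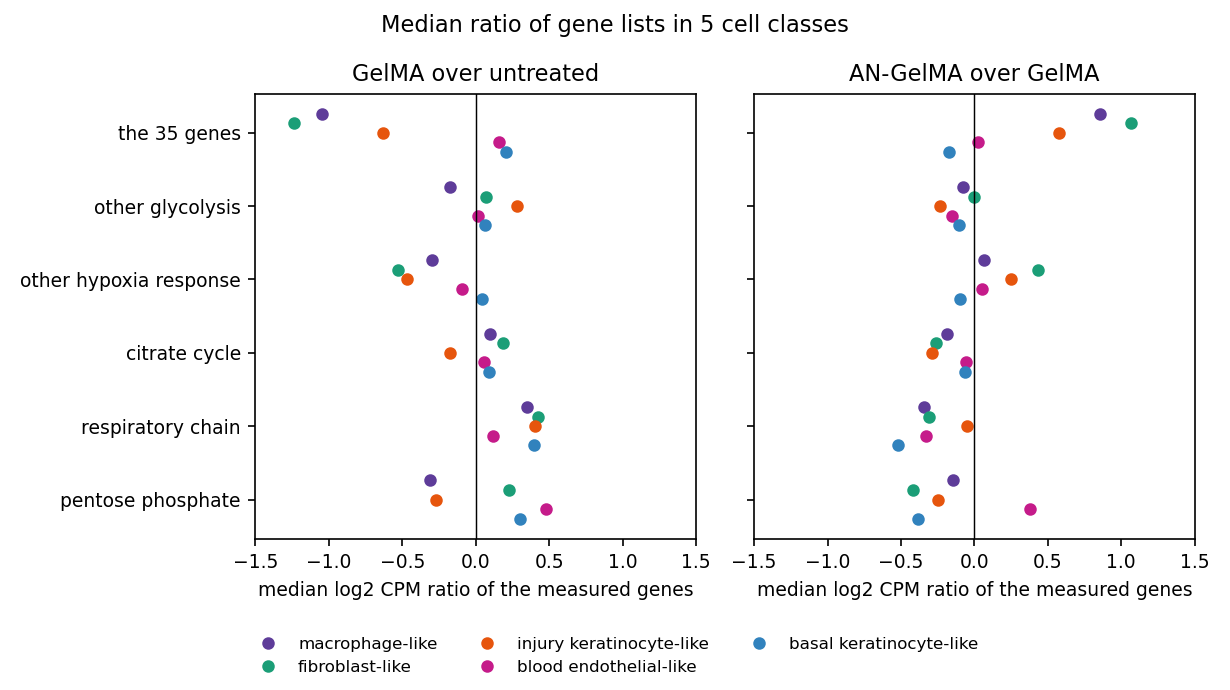
Median log2 CPM ratio of the measured genes of 6 lists (y axis) in 5 cell classes for 2 comparisons. The 35 genes lie at -1.24, -1.05 and -0.63 for GelMA over untreated in fibroblasts, macrophages and injury keratinocytes, while respiratory chain genes lie above 0 there.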

How the data were processed

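The deposited values are whole UMI counts for each gene in each cell. Cell Ranger 10.0.0 wrote them, per the file headers. The submitters' processing notes name the mouse builds GRCm39 and mm39. Tissue was fixed for 24 h and dissociated with Liberase TH at 5 mg/mL for 2 h at 37 °C, and the 10x Genomics Flex kit, version 2, was used, in which probe pairs bind RNA in fixed cells, per the labels' protocols. A gene is seen only through its probes, and free RNA from other cells adds to each class.

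A cell was kept if it had 400 UMIs, 250 genes and no more than 10% of UMIs from mitochondrial genes. Scrublet called 0 doublets, and instead the top 5% of its scores were removed from each library. This left 5737, 10736 and 9131 cells for untreated, GelMA and AN-GelMA, from totals of 8945496, 21613482 and 14156692 UMIs. With Scanpy 1.11.5 on Python 3.11.15, 2000 variable genes, scaled and clipped at 10, gave 30 principal components. From these a graph of 15 neighbours was divided by the Leiden method (leidenalg 0.10.2) at resolution 1 without integration, which gave 39 clusters. A cluster took a class name when its mean log2 marker level over the 25th percentile of clusters reached 2 and exceeded that of the next class by 1. It also needed 3 markers at 4 times that level and 50 CPM, no more markers of another class among its 10 leading genes, and 50 cells. This rule was set after the cluster tables were seen, and 33 clusters were named.

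Counts were summed by class and library, which here makes 1 UMI worth 1.36, 2.93 and 0.63 CPM in macrophages, 0.77, 1.48 and 0.41 in fibroblasts and 3.76, 2.21 and 2.79 in injury keratinocytes. Intervals of levels are exact Poisson, those of ratios exact Clopper-Pearson from the 2 counts (SciPy 1.17.1), and they cover counting error only; the interval code was tested on simulated data. Classes with at least 50 cells in both libraries were compared, and 0 UMIs were taken as 3. No p-value is given, since cells are not replicates. All 35 genes could be named; the text gives those past 1.5 with at least 50 UMIs in order of size, those needed to describe a role, and from other lists up to 6 genes and Vegfa. The genes, 27 marker lists, 8 other lists and 12 alternatives were chosen with earlier results of these data known, and 4 alternatives were added after the clusters were seen. Promoters are RefSeq's on GRCm38.p6, another build than that of the counts, and were used for sequence only. Of 45 promoters 37 had their end found in a transcript in the printed direction and 0 in the other. Slc2a3, Epas1 and Ndrg1 had no entry.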

Additional observations from a re-analysis of the deposited data

Results flagged for a closer look

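These values belong to genes whose ratio passed 2 times in opposite directions in different cell classes, with counting intervals on opposite sides of 0 and at least 50 UMIs. There were 5 such genes among 33 with enough UMIs in 2 or more classes in AN-GelMA over GelMA, and 4 among 31 in GelMA over untreated. Of all features 3.75% and 3.90% did so. The difference between the classes was not tested, and the libraries held very different numbers of follicle cells.

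In AN-GelMA over GelMA, Ddit4 was at 1.44 in fibroblasts and -1.30 in neutrophils. Hilpda was at 1.09 in fibroblasts and 2.23 in macrophages, and at -1.43 in neutrophils. The lactate exporter Slc16a3 was at 1.46 in fibroblasts and 1.02 in macrophages, and at -1.01 in basal keratinocytes, where it went from 60.6 to 30.05 CPM. Egln3 was at 1.5 in fibroblasts and -1.18 in upper follicle keratinocytes (129 to 56.9 CPM). Pfkfb3 was at 1.39 in fibroblasts and -1.86 in skeletal muscle (278 to 76.7 CPM).

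In GelMA over untreated, Slc2a1 was at -2.45 in fibroblasts, -1.97 in macrophages and -1.15 in injury keratinocytes, but at 2.41 in outer root sheath cells, which had 3 UMIs (18.2 CPM) in untreated and 96.7 CPM in GelMA. Egln3 was at -2.55 in fibroblasts, -1.35 in macrophages and 1.16 in upper follicle keratinocytes. In outer root sheath cells Egln3 was at 1.06 with 0 untreated UMIs taken as 3, and its counting interval began at 0.73. Egln1 was at -1.07 in fibroblasts and 2.48 in hair matrix and shaft cells, where untreated had 2 UMIs. Ndrg1 was at -2.04 in fibroblasts and 2.21 in hair matrix and shaft cells (20.5 to 94.7 CPM).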

How the results depend on the processing

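No paired analysis was possible because there is only 1 library for each treatment. Of 173 alternative values of the 15 medians 166 lay between the median lower and the median upper counting limit of the genes. This band is wide, and the macrophage and injury keratinocyte medians below could shrink without leaving it. In blood endothelial cells the median for GelMA over untreated ran from -0.19 to 0.20 and kept its sign in 7 of 11 alternatives. Of 79 values of the 6 counts 66 were within 1.5 times of the reported count. Of 1594 values of single genes 1382 lay within the gene's counting interval, 193 moved out of it, and 19 changed sign from a reported ratio past 1.5. Over the alternatives the median for GelMA over untreated ran from -1.43 to -0.35 in fibroblasts, -1.19 to -0.38 in macrophages and -0.78 to -0.41 in injury keratinocytes. For AN-GelMA over GelMA it ran from 0.48 to 1.20, 0.43 to 1.01 and 0.20 to 0.72. With a ratio of 2 in place of 1.5, 11 genes were higher in AN-GelMA than in GelMA in macrophages and 4 in injury keratinocytes, where 5 were lower in GelMA than in untreated; the stricter limit itself lowers such counts. With at least 100 UMIs per gene, 8 injury keratinocyte genes were higher and 8 lower in those comparisons, with fewer genes measured. With cells thinned to 800 UMIs, which left out 1080, 1878 and 2257 cells, 7 were higher in injury keratinocytes, and there Hif1a (AN-GelMA over GelMA) was at -0.0117 and P4ha1 (GelMA over untreated) at 0.0845. With a class given per cell, macrophage Ddit4 was at -0.37 for AN-GelMA over GelMA and Slc2a1 at 0.0483 for AN-GelMA over untreated; the cause was not tested. In the Cd163 macrophage cluster alone 8 genes were higher and 7 lower, with Hilpda at -0.0674 and 0.0196 from at most 7 UMIs. In the Pi16 fibroblast cluster alone the medians were 0.55 and -0.65 with 13 higher and 16 lower; Ndrg1 was at -0.0643 for AN-GelMA over GelMA, 0.24 for GelMA over untreated and 0.18 for the third comparison, and Ankrd37 at 0.49 for the last. In the Tnn cluster alone the medians were 0.48 for AN-GelMA over GelMA, -0.35 for GelMA over untreated and 0.10 for the third comparison, with 9 higher and 9 lower. There GelMA over untreated was 0.69 for Slc2a1, 0.24 for Hk2 and 0.38 for Ddit4, and AN-GelMA over untreated was 0.88 for Slc2a1, 0.25 for Pfkfb3, 0.56 for Hilpda and 1.32 for Ddit4. In the Nos2 and Saa3 cluster alone the median for AN-GelMA over untreated was -0.71. Without that cluster fibroblasts had a median of -0.53 with 14 genes lower in GelMA than in untreated, and AN-GelMA over untreated was 0.13 for Slc2a1 and 0.32 for Ddit4. Choosing by cluster after seeing the data, as in the fibroblast alternatives, gives descriptions only. Depth limits the sparse genes most: Pgk1 and Car9 had too few UMIs to be measured in most classes.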

Other observations

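A cluster of 37 cells that met no class name, all from the GelMA library and led by Gpsm1, Accs and Lnx1, had 10601 CPM of the 35 genes [9640, 11632], beside 10667 in neutrophils and 5806 in injury keratinocytes of that library. With no cells in the other libraries it entered no comparison. In skeletal muscle Pfkfb3 had 219.5, 278 and 76.7 CPM, in the order untreated, GelMA and AN-GelMA, and Hk1 had 67.5, 15.2 and 76.7 CPM. In outer root sheath cells Hif1a had 48.6, 197 and 35.7 CPM, from 160, 1419 and 93 cells.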
